A study of Mus musculus with 2 samples.

Results

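The 36 genes described here encode nucleolar factors of ribosome synthesis: subunits and a promoter factor of RNA polymerase I, nucleolar scaffold proteins, the core proteins of the small nucleolar ribonucleoproteins (snoRNPs) that modify ribosomal RNA (rRNA), and assembly factors of the small and the large ribosomal subunit. They were listed by name and function, with earlier results of these data known, and all 36 had a row among the 28000 mouse genes and transgenes counted. They were followed in single-cell RNA-seq of mouse prostate tumours, with a DoubleTg and a TripleTg library. The study was concerned with nucleolar change and ribosome synthesis in TripleTg tumours, and the question here was whether these factors were higher in TripleTg epithelium.

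DoubleTg mice (hHGFtg:H11 hMET/+:PB Cre4) had human HGF from a body-wide transgene, and human MET (hMETtg) from the H11 locus once Cre recombinase, driven in prostate epithelium by the probasin promoter, had removed a stop cassette. The TripleTg genotype held the same 3 alleles together with Ctnnb1 L(Ex3)/+, from which that Cre removes exon 3 so that the β-catenin protein is stabilised. The DoubleTg tissue was labelled prostatic adenocarcinoma and the TripleTg tissue prostatic carcinoma. The study describes separate sets of single-cell experiments with different littermates, but the age and the number of the mice behind each of these libraries are not given in the sources used here. With 1 library per genotype, genotype and library cannot be told apart, no test was run, and every interval is a 95% interval of counting error only.

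A ribosome is made in the nucleolus. RNA polymerase I transcribes the ribosomal DNA into 1 long precursor, snoRNPs guide its methylation (box C/D) and its pseudouridylation (box H/ACA), and successive sets of assembly factors fold, cut and export the precursors of each subunit. Myc, a transcription factor that binds the E-box CACGTG with its partner Max, is a known activator of many of these genes, and dividing cells make more ribosomes than resting ones.

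The DoubleTg library held 12072 cell barcodes, of which 10598 (87.8%) were kept, and all 9492 of the TripleTg library were kept, at a median of 16761 and 20097 unique molecular identifiers (UMIs, 1 per captured RNA molecule) per kept cell. The TripleTg matrix already held just the cells that pass this filter, so the shares kept cannot be compared. The libraries shared 30 barcodes. Clusters were named from marker genes, with the suffix "-like", and each cell was thinned to 5000 UMIs so that the libraries were compared at equal depth, which left 6699 DoubleTg and 6350 TripleTg epithelial-like cells. Of these, 4797 and 4303 were luminal-like and 1742 and 1075 basal-like. Levels are UMIs per 1000000 UMIs of the class (CPM). The Wnt output genes followed the labels, since in epithelial-like cells Axin2 stood at 3.22 CPM in DoubleTg and 74.6 CPM in TripleTg, Nkd1 at 1.13 and 62.1 CPM and Notum at 1.94 and 41.1 CPM. The hMETtg transgene did not follow the label in the same way. In luminal-like cells it stood at 513 CPM in DoubleTg and 22.9 CPM in TripleTg, below the 61.6 CPM of the TripleTg fibroblast-like cells, which should lack it.

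The sequences below show which of the 36 genes carried an E-box at their start, since the level of Myc is set beside theirs further on. A window from 250 bases before to 50 bases after the RefSeq start site was on hand for 31 of the 36 genes (build GRCm38.p6). The word CACGTG, which reads the same on both strands, was present in 7 of the 31 windows (22.6%), against 8.09% of 27025 genes of the table and 12.7% of the 6566 genes of the table with a mean of 5 CPM or more in basal-like cells. The GC box GGGCGG, searched on both strands, was in 24 of the 31 (77.4%), against 38.2% of all genes and 72.8% of the measured ones. The TCF/LEF core CTTTGA, searched on both strands, was in 2 (6.45%, Ncl and Noc2l), against 18.2% and 13.3%. The capitals mark the E-box, with up to 10 bases on each side, written along the gene's strand, and each is a match of letters and not a measured binding site. The median GC content of the windows was 59.7% for the 31 genes and 61.7% for the 6566.
Nop2, chr6:125131813-125131838, plus strand: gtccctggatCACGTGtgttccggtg
Wdr43, chr17:71616222-71616247, plus strand: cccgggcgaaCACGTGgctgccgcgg
Mybbp1a, chr11:72441357-72441376, plus strand: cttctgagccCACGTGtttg
Tsr1, chr11:74898094-74898119, plus strand: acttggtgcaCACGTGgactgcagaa
Pes1, chr11:3963967-3963992, plus strand: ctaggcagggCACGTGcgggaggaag
Utp20, chr10:88826765-88826787, minus strand: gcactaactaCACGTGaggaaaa
Utp4, chr8:106893645-106893670, plus strand: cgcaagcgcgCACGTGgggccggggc
The E-box of Nop2 began 60 bases before the start site, and those of the other 6 genes lay after it, from 3 bases in Pes1 to 41 bases in Mybbp1a.

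Across all epithelial-like cells most of the ribosome synthesis genes were lower in TripleTg than in DoubleTg. These values pool classes in unequal shares. The cells that were neither luminal-like nor basal-like were 89 seminal vesicle-like and 71 other epithelial-like ones in DoubleTg and 544 and 428 in TripleTg, and the luminal-like cells taken alone gave another result, set out further on. The median log2 ratio of TripleTg over DoubleTg was -0.55 over the 36 genes. Over all 8681 genes with a mean of 5 CPM or more in the 2 libraries it was -0.16, a difference of -0.39. A scaling of the totals shifts all genes alike and so cannot change this difference. The difference was -0.28 without thinning, -0.22 in cells with an hMETtg UMI and -0.71 in cells of 10000 to 30000 UMIs. Genes are counted below as higher from 25% above the DoubleTg level and as lower from 20% below it, which are equal steps on the log2 scale. Only Nhp2 was at least 25% higher in TripleTg, where 21.1% of all genes were, and 29 were at least 20% lower, where 38.7% of all genes were. The latter count was 19 without thinning and also 19 in cells with an hMETtg UMI. Summed over the 36 genes, the level was 4464 CPM in DoubleTg and 3560 CPM in TripleTg. Ribosomal protein genes, which are not among the 36, took 23.7% of UMIs in DoubleTg and 28.6% in TripleTg and were thus higher there.

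The genes on top of this order were abundant nucleolar proteins. Nhp2, a core protein of box H/ACA snoRNPs (chr11:51619735-51623714 on mm10), stood at 196 CPM in DoubleTg and 259 CPM in TripleTg, a log2 ratio of 0.41 (0.36 to 0.45). Npm1, the nucleolar chaperone nucleophosmin (chr11:33152287-33163206), stood at 923 and 1104 CPM, a log2 ratio of 0.26 (0.24 to 0.28). Npm1 has near-identical processed copies elsewhere in the genome, so its level is less certain than the others. Polr1a, the largest subunit of RNA polymerase I, was level, with 11.9 and 11.5 CPM (-0.04, -0.25 to 0.16). The other 33 genes were lower in TripleTg with intervals below 0.

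By role, the assembly factors of the small subunit had the lowest median in epithelial-like cells, -0.88 over 8 genes. The gene with the lowest ratio of all 36 was among them: Rrp9, a protein of the U3 snoRNP (chr9:106475963-106485424), had 40.2 CPM in DoubleTg and 14.9 CPM in TripleTg (-1.43, -1.58 to -1.28). Of the other processome proteins, Nop14 had 69.8 CPM in DoubleTg and 32.6 CPM in TripleTg (-1.10), Utp4 had 39.4 and 19.6 CPM (-1.01), Wdr43 had 131 and 68.2 CPM (-0.94), Rrp12 had 12.7 and 8.69 CPM (-0.55) and Utp20 had 11.6 and 9.35 CPM (-0.30). Tsr1, needed late in small-subunit assembly, had 40.2 and 22.9 CPM (-0.81), and Nob1, the endonuclease of the last cut of the small-subunit rRNA, had 32.7 and 22.7 CPM (-0.53). All 8 thus pointed the same way.

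The box C/D proteins came next, with a median of -0.82 over 3 genes. The scaffold proteins Nop58 and Nop56 stood at 227 and 126 CPM in DoubleTg and at 122 and 71.5 CPM in TripleTg (-0.89 and -0.82), while Fbl, the methyltransferase fibrillarin, had 134 and 117 CPM (-0.19). The 12 large-subunit factors had a median of -0.59. The rRNA methyltransferase Nop2 stood at 27.8 CPM in DoubleTg and 11.1 CPM in TripleTg (-1.32), Rrp1b at 22.7 and 10.3 CPM (-1.14), the GTPase Gnl3 (nucleostemin) at 148 and 72.4 CPM (-1.03), Rrs1 at 61.3 and 31.7 CPM (-0.95) and Noc2l at 46.2 and 28.0 CPM (-0.73). These 5 had the lowest ratios of the group. The other 7 lay between -0.62 and -0.19, with Ftsj3 at 49.6 CPM in DoubleTg and 32.3 CPM in TripleTg, Nip7 at 67.2 and 45.6, Ebna1bp2 at 85.7 and 61.5, Pes1 at 38.1 and 27.5, Nop16 at 39.2 and 29.3, Wdr12 at 14.3 and 10.9 and Bop1 at 27.0 and 23.6. Pes1, Bop1 and Wdr12 form 1 complex, and their ratios were -0.47, -0.19 and -0.39.

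In RNA polymerase I, with a median of -0.52 over 4 genes, Polr1b, the second-largest subunit, stood at 9.67 CPM in DoubleTg and 4.0 CPM in TripleTg (-1.27), Polr1c, which is shared with RNA polymerase III, at 44.4 and 27.6 CPM (-0.69), and the promoter factor Ubtf at 47.9 and 37.6 CPM (-0.35). Of the box H/ACA proteins besides Nhp2, Gar1 had 103 and 64.0 CPM (-0.69), Nop10 242 and 165 CPM (-0.55) and the pseudouridine synthase Dkc1 44.1 and 32.6 CPM (-0.44). The nucleolar scaffold had a median of -0.47 over 5 genes. Ncl (nucleolin) stood at 956 CPM in DoubleTg and 657 CPM in TripleTg (-0.54), the snoRNP chaperone Nolc1 at 118 and 69.5 CPM (-0.77), Mybbp1a at 93.5 and 67.3 CPM (-0.47) and the RNA helicase Ddx21 at 184 and 167 CPM (-0.14). No role had a median above 0 in the whole epithelium.

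The epithelium held 2 main classes, and the genes behaved differently in them. In luminal-like cells the median log2 ratio was -0.12 over the 36 genes and -0.05 over all 8542 genes tested, a difference of -0.07. Of the 36, 15 were higher and 21 lower in TripleTg, with 9 at least 25% higher (27.1% of all genes were) and 10 at least 20% lower (33.9% of all genes were). These shares are near the background in both directions. With coarser clusters (Leiden resolution 0.5) the median was -0.009 over the 36 and -0.025 over all genes, a difference of 0.016. With ribosomal protein and mitochondrial genes left out of the total, the median was 0.032 over the 36 and 0.098 over all genes. Such a scaling shifts all genes alike, so it cannot change the difference.

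The genes that were higher in TripleTg luminal-like cells were led by Npm1, at 651 CPM in DoubleTg and 1229 CPM in TripleTg, a log2 ratio of 0.92 (0.89 to 0.95). Polr1a followed with 7.88 and 13.1 CPM (0.73, 0.46 to 1.0), then Nhp2 with 172 and 285 CPM (0.72, 0.67 to 0.78), Wdr12 with 7.84 and 12.3 CPM (0.65, 0.37 to 0.92) and Ddx21 with 116 and 174 CPM (0.58, 0.51 to 0.65). Utp20 (0.58), Fbl (0.51), Dkc1 (0.39) and Ncl (0.35) were the other 4 at least 25% higher. Fbl stood at 89.9 CPM in DoubleTg and 128 CPM in TripleTg, and Ncl at 563 and 716 CPM. The core proteins of a snoRNP class thus differed among themselves. In box C/D, Nop56 (-0.30) and Nop58 (-0.36) stood against Fbl, and in box H/ACA, Nop10 (-0.39) and Gar1 (-0.11) stood against Nhp2 and Dkc1.

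At the other end, Polr1b had 7.75 CPM in DoubleTg luminal-like cells and 4.42 CPM in TripleTg ones (-0.81, -1.18 to -0.45), and Nop2 had 19.3 and 11.1 CPM (-0.80, -1.03 to -0.57). The processome proteins Utp4 (-0.64), Nop14 (-0.61) and Rrp9 (-0.58) came next, so that the small-subunit factors had the lowest role median in luminal-like cells too, -0.37, and the nucleolar scaffold the highest, 0.35. The medians of the other roles were -0.30 for box C/D, -0.21 for RNA polymerase I, -0.03 for the large subunit and 0.14 for box H/ACA.

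The summed level gives another picture than the median, because a few genes hold most of the UMIs. It was 3152 CPM in DoubleTg and 3895 CPM in TripleTg luminal-like cells, a log2 ratio of 0.31 (0.29 to 0.32). Without Npm1 the ratio was 0.09, and without Npm1, Ncl and Nhp2 it was -0.09, with 1766 CPM in DoubleTg and 1664 CPM in TripleTg. The higher sum in TripleTg luminal-like cells was therefore carried by these 3 genes. Ribosomal protein genes took 22.8% of UMIs in DoubleTg and 30.2% in TripleTg luminal-like cells.

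**Figure D1:**
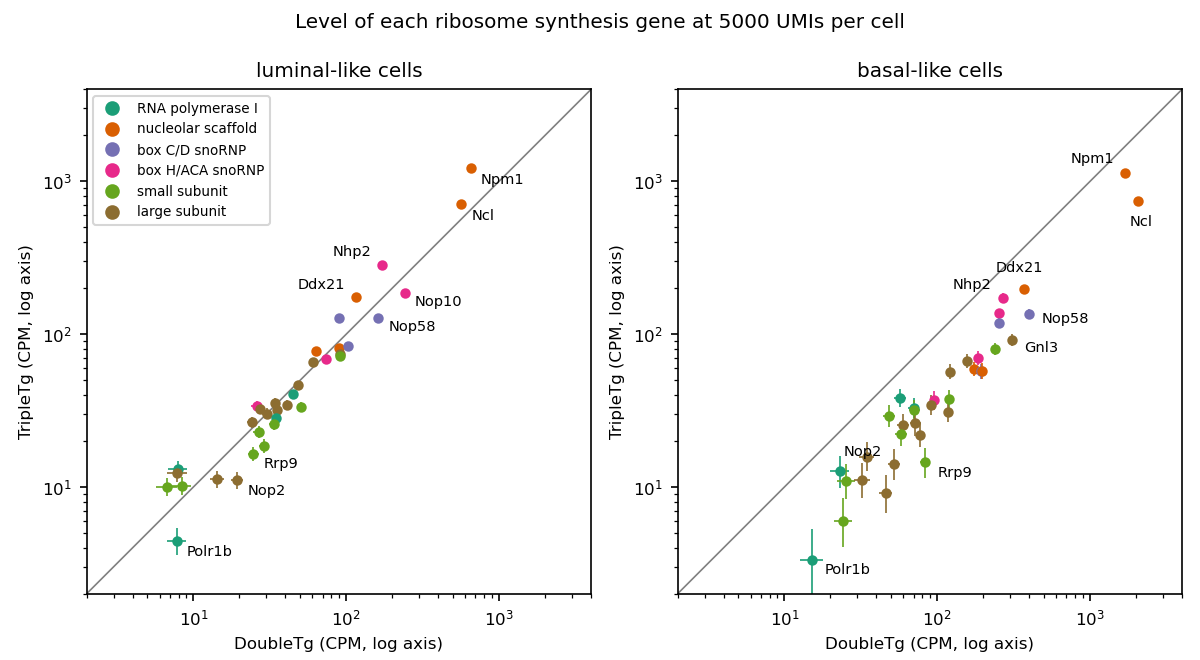
Level of each of the 36 genes in DoubleTg (x axis) and TripleTg (y axis) in luminal-like and basal-like cells, in CPM on log axes, coloured by role, with bars for the 95% counting interval and a line at equal levels. In luminal-like cells the points lie on both sides of the line, with Npm1 at 651 and 1229 CPM above it, and in basal-like cells all 36 lie below it.

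In basal-like cells all 36 genes were lower in TripleTg. The median log2 ratio was -1.41, against -0.06 over all 8503 genes tested, a difference of -1.35. Each of the 36 was at least 20% lower, where 36.3% of all genes were, and each interval lay below 0. The summed level was 8144 CPM in DoubleTg and 3646 CPM in TripleTg, a log2 ratio of -1.16 (-1.18 to -1.14), and it was lower with Npm1, Ncl and Nhp2 left out as well (-1.37).

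The lowest ratio was again that of Rrp9, at 83.6 CPM in DoubleTg and 14.5 CPM in TripleTg basal-like cells (-2.53, -2.88 to -2.19). Rrp1b had 45.9 and 9.12 CPM (-2.33), Polr1b 15.2 and 3.35 CPM (-2.18), Rrp12 24.3 and 5.95 CPM (-2.03) and Rrs1 118 and 31.1 CPM (-1.92). These 5 belong to 3 roles. The smallest differences were those of Npm1, at 1689 CPM in DoubleTg and 1135 CPM in TripleTg (-0.57, -0.62 to -0.53), Ubtf at 57.3 and 38.3 CPM (-0.58), Nhp2 at 268 and 173 CPM (-0.63), Nob1 at 48.5 and 29.2 CPM (-0.73) and Polr1a at 23.1 and 12.7 CPM (-0.87). Ncl, the most abundant of the 36 in DoubleTg basal-like cells, stood at 2058 CPM there and at 743 CPM in TripleTg (-1.47, -1.52 to -1.42).

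In basal-like cells the median was below 0 in every role, and ran from -0.98 for RNA polymerase I and -1.13 for box H/ACA to -1.47 for the nucleolar scaffold, -1.48 for the small subunit, -1.50 for the large subunit and -1.57 for box C/D. Between the 2 classes the order of the genes was partly shared, with Rrp9 and Polr1b low and Npm1 and Nhp2 high in both. For every 1 of the 36 the ratio was lower in basal-like than in luminal-like cells: 21 genes were lower in TripleTg in both classes, and 15 were higher in luminal-like and lower in basal-like cells.

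**Figure D2:**
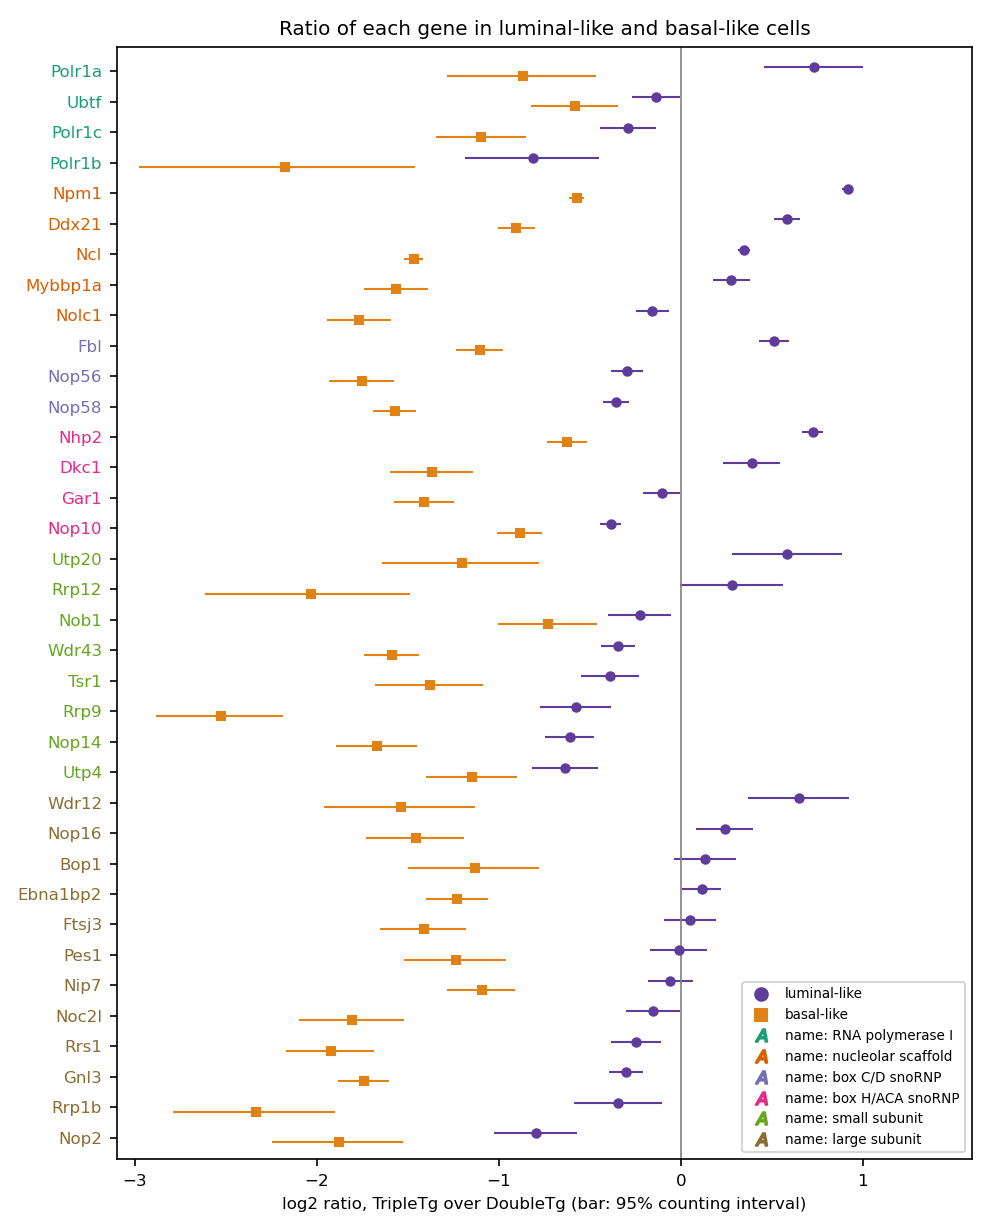
Log2 ratio of TripleTg over DoubleTg for each of the 36 genes in luminal-like cells (circles) and basal-like cells (squares), with bars for the 95% counting interval and gene names coloured by role. Every square lies left of 0 and left of the circle of the same gene, and the circles run from Polr1b at -0.81 to Npm1 at 0.92.

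Seen within each library, the contrast lay in the DoubleTg basal-like cells. There the 36 genes summed to 8144 CPM, against 3152 CPM in DoubleTg luminal-like cells, whereas in TripleTg the basal-like and luminal-like sums were 3646 and 3895 CPM. Over single cells at 5000 UMIs, the middle 50% of the DoubleTg basal-like cells lay between 5800 and 10000 CPM and that of the TripleTg ones between 2400 and 4400 CPM, so these ranges did not overlap. The 2 DoubleTg basal-like clusters stood at 8785 and 7765 CPM. Of the TripleTg ones, the largest, with 717 cells, stood at 3626 CPM, one of 261 cells at 3146 CPM and one of 73 cells at 5490 CPM, with clusters of under 50 cells left out. That small cluster had the lowest Wnt output of the 3, 13.7 CPM summed over Axin2, Lef1, Nkd1 and Notum, against 141 and 648 CPM in the others. It was also the shallowest, with a median of 8229 UMIs against 21016 and 25553 UMIs. Among TripleTg luminal-like clusters, the lowest Wnt output (40.7 CPM) went with a sum of 3602 CPM and the highest (269 CPM) with 2990 CPM. Another, at 235 CPM, had a sum of 4237 CPM.

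Several other measures also differed between the libraries in basal-like cells. The 7 basal markers summed to 15023 CPM in DoubleTg and 5814 CPM in TripleTg basal-like cells, with 5 of 7 at least 20% lower, though in TripleTg they were still far above the 274 CPM of its luminal-like cells. The DoubleTg cells had a median depth of 13141 UMIs and the TripleTg ones of 22462 UMIs, and with cells of 10000 to 30000 UMIs alone the median log2 ratio was -1.54. Fibroblast markers summed to 1301 and 226 CPM. A list of 12 early response and heat shock genes, which dissociation of tissue can raise, summed to 3087 CPM in DoubleTg and 2030 CPM in TripleTg, with 9 of 12 at least 20% lower and 1 at least 25% higher (31.8% of all genes were). In luminal-like cells this list summed to 3480 CPM in DoubleTg and 2651 CPM in TripleTg. There 7 of 12 were at least 20% lower (33.9% of all genes were) and 2 at least 25% higher (27.1% of all genes were). The part of these measures in the results was not tested.

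Ribosome synthesis genes were lower in TripleTg also in classes in which the probasin-driven Cre should not act. In fibroblast-like cells (620 DoubleTg and 357 TripleTg cells) the median log2 ratio was -0.60 over the 35 genes at 5 CPM or more, against 0.06 over all genes, with 27 at least 20% lower (25.4% of all genes were). Polr1b was below 5 CPM there. The lowest ratios were those of Rrp12 (-1.57), Utp4 (-1.44), Rrp9 (-1.13), Nolc1 (-1.12) and Mybbp1a (-1.11), and the highest those of Polr1a (0.41), Nop10 (-0.06), Npm1 (-0.08), Ubtf (-0.08) and Nhp2 (-0.11). The sum was 4675 CPM in DoubleTg and 3537 CPM in TripleTg. The early response and heat shock genes summed to 9393 and 9700 CPM. Of these 12 genes, 5 were at least 20% lower (25.4% of all genes were) and 3 at least 25% higher (32.7% of all genes were). Transcripts of epithelium were present in these cells. Luminal markers summed to 3827 and 3302 CPM, with 6 of 11 higher (32.7% of all genes were) and 4 lower, basal markers to 307 and 170 CPM, with 4 of 6 lower, and hMETtg stood at 62.3 and 61.6 CPM. Macrophage markers summed to 17.1 and 66.1 CPM, with 4 of 4 higher. Axin2 had 14.2 CPM in DoubleTg and 34.2 CPM in TripleTg. Fibroblast markers summed to 11419 and 14617 CPM. The part of these in the result was not tested.

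In endothelial-like cells (160 and 161 cells) the median was -0.85 over 35 genes, against -0.01 over all genes, with 29 at least 20% lower (32.4% of all genes were). Rrp1b (-2.33), Rrp9 (-2.25), Mybbp1a (-1.65), Nop56 (-1.60) and Polr1a (-1.54) were lowest. Polr1c (0.28), Npm1 (0.15), Tsr1 (0.11), Nop10 (0.07) and Wdr12 (-0.01) were highest, each with an interval that held 0. The sum was 4582 CPM in DoubleTg and 3070 CPM in TripleTg. The early response and heat shock genes summed to 7055 and 4707 CPM. Of these 12 genes, 8 were at least 20% lower (32.4% of all genes were) and 1 at least 25% higher (35.0% of all genes were). Endothelial markers summed to 7064 and 5007 CPM, with 4 of 6 lower, luminal markers to 2589 and 1875 CPM, with 7 of 10 lower, and basal markers to 906 and 340 CPM, with 5 of 6 lower. Macrophage markers summed to 7.5 and 114 CPM, with 5 of 5 at least 25% higher (35.0% of all genes were). Axin2 had 1 UMI in DoubleTg and 12.4 CPM in TripleTg, and hMETtg had 60.0 and 11.2 CPM. The part of these in the result was not tested.

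Macrophage-like cells (264 and 412 cells) gave no such difference. The median was 0.12 over 34 genes and 0.21 over all genes, with 12 at least 25% higher (43.1% of all genes were) and 10 lower (20.7% of all genes were). Npm1 was higher in TripleTg, with 473 CPM in DoubleTg and 734 CPM in TripleTg (0.63, 0.50 to 0.77), and Ncl was level, with 537 and 511 CPM (-0.07, -0.21 to 0.07). Utp4 (1.06), Rrs1 (0.94), Wdr12 (0.84) and Rrp1b (0.73) had higher ratios, at 21.4 CPM or less, and Ftsj3 (-1.07), Nop56 (-0.75), Tsr1 (-0.70), Noc2l (-0.64) and Rrp9 (-0.64) were lowest. The early response and heat shock genes summed to 4987 CPM in DoubleTg and 2307 CPM in TripleTg macrophage-like cells.

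Seminal vesicle-like cells (89 and 544 cells) had a median of -0.52 over 35 genes, close to the -0.42 over all genes, and 20 genes were at least 20% lower, where 55.0% of all genes were. That share is near the background. Rrp12 (-1.87), Tsr1 (-1.43), Nop58 (-1.03), Bop1 (-1.03) and Polr1b (-1.03) were lowest and Dkc1 (0.36), Npm1 (0.17), Polr1c (0.13), Ddx21 (0.05) and Ncl (-0.05) highest. The other epithelial-like cells, which had no class name, were not compared gene by gene, and their sum was 5569 CPM in DoubleTg and 2183 CPM in TripleTg.

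**Figure D3:**
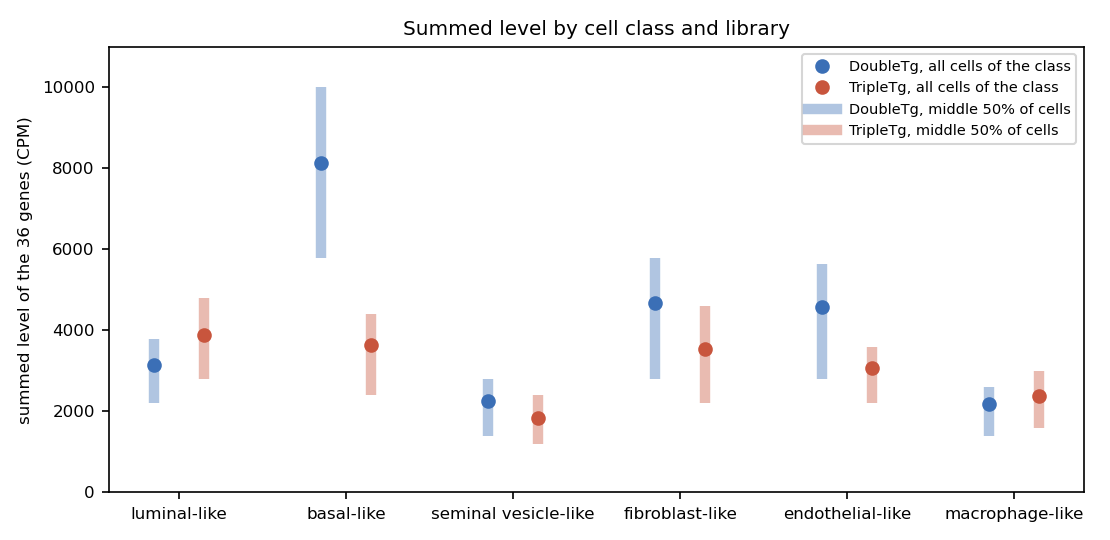
Summed level of the 36 genes in CPM for 6 cell classes in DoubleTg and TripleTg, with a point for all cells of a class and a bar for the middle 50% of its single cells at 5000 UMIs. DoubleTg basal-like cells stand highest, at 8144 CPM, and their bar does not overlap that of the TripleTg basal-like cells at 3646 CPM.

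The next comparison asked whether cycling cells had more of these transcripts. Cells with UMIs of 3 or more of 15 proliferation genes after thinning were called cycling. They were 51 of the 4797 luminal-like cells in DoubleTg (1.06%, with an interval of 0.793 to 1.40%) and 301 of the 4303 in TripleTg (6.995%, with an interval of 6.25 to 7.80%), and over the whole epithelium 52 and 339 cells. Mki67 and Top2a, which mark dividing cells, stood at 169 and 173 CPM in the DoubleTg and at 148 and 221 CPM in the TripleTg cycling epithelial-like cells.

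In TripleTg, cycling epithelial-like cells had more transcripts of 35 of the 36 genes than non-cycling ones. The median log2 ratio of cycling over non-cycling was 0.47, against 0.07 over all genes, and 24 genes were at least 25% higher (29.2% of all genes were) with none at least 20% lower (19.2% of all genes were). Wdr12 stood at 10.4 CPM in non-cycling and 20.1 CPM in cycling cells (0.95, 0.39 to 1.46), Dkc1 at 31.1 and 57.8 CPM (0.89, 0.58 to 1.19), Bop1 at 22.8 and 37.8 CPM (0.73, 0.34 to 1.10) and Ubtf at 36.4 and 59.6 CPM (0.71, 0.40 to 1.01). Polr1b was also among the 5 highest (0.75), on 11 UMIs in cycling cells. Npm1 had 1073 and 1657 CPM (0.63, 0.57 to 0.68) and Ncl 640 and 958 CPM (0.58, 0.51 to 0.66).

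The lowest 5 ratios in cycling TripleTg cells were those of Utp4 (-0.06), Ddx21 (0.07), Nob1 (0.10), Rrp9 (0.16) and Utp20 (0.19), each with an interval that held 0. Ddx21, with 167 CPM in non-cycling and 175 CPM in cycling cells, was the most abundant of these. The small-subunit factors had the lowest role median here, 0.20, against 0.64 for RNA polymerase I, 0.56 for the scaffold, 0.53 for box H/ACA, 0.51 for the large subunit and 0.43 for box C/D. Of the other lists, the exosome had the highest median (0.60, with 9 of 11 at least 25% higher), and 18 of 45 small-subunit and 15 of 44 large-subunit factors were at least 25% higher, where 29.2% of all genes were, which the large-subunit share is near. Within luminal-like cells alone, the median was 0.38 over the 36 genes and 0.03 over all genes, with 22 at least 25% higher (27.3% of all genes were). Dkc1 (0.86), Wdr12 (0.82), Ubtf (0.68), Nip7 (0.64) and Ebna1bp2 (0.64) were highest and Rrp9 (-0.12), Utp20 (-0.01), Ddx21 (0.03), Nob1 (0.07) and Rrs1 (0.09) lowest. Cycling cells were also the deeper ones before thinning, with a median of 39935 UMIs against 25791 UMIs in the non-cycling TripleTg epithelial-like cells. With cells of 10000 to 30000 UMIs alone the median was 0.49.

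In DoubleTg the result differed with the cells that served as non-cycling. Of the 52 cycling epithelial-like cells 51 were luminal-like, whereas the non-cycling ones included the basal-like cells with their high level. Against all non-cycling epithelial-like cells the median was -0.18, with 6 genes at least 25% higher (41.2% of all genes were) and 13 lower (25.5% of all genes were). With TMM factors, another scaling of the totals that shifts every gene by -0.26, it was -0.43 (-0.10 over all genes). Without thinning it was 0.14 (0.19 over all genes), and with cycling cells called from 15 G1/S genes it was 0.58 (0.12 over all genes), so that the side on which the 36 lay of all genes turned with the G1/S genes. Within luminal-like cells it was 0.22, close to the 0.20 over all genes, with 16 at least 25% higher (43.4% of all genes were). The sum was 3139 CPM in non-cycling and 4325 CPM in cycling DoubleTg luminal-like cells, a log2 ratio of 0.46 (0.38 to 0.55). It was 3794 and 5233 CPM in TripleTg, a log2 ratio of 0.46 (0.43 to 0.50). Without Npm1 the ratios were 0.35 (0.25 to 0.45) and 0.43 (0.39 to 0.47). The cycling DoubleTg luminal-like cells also held more markers of other classes than the non-cycling ones. Basal markers stood at 383 CPM in non-cycling and 1835 CPM in cycling cells, fibroblast markers at 28.7 and 196 CPM and T/NK markers at 2.78 and 82.4 CPM, while luminal markers stood at 30415 and 18729 CPM. The part of these in the result was not tested.

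With only 51 DoubleTg cells most intervals of single genes were wide, and 8 of the 36 lay above 0. Npm1 had 646 CPM in non-cycling and 1145 CPM in cycling luminal-like cells (0.83, 0.65 to 0.99), Ncl had 560 and 800 CPM (0.51, 0.31 to 0.71) and Ddx21 had 115 and 208 CPM (0.85, 0.43 to 1.24). Wdr12 had the highest ratio, on 8 UMIs (2.05, 0.81 to 3.06), followed by Rrp12 (8.26 CPM in non-cycling and 19.6 CPM in cycling cells, on 5 UMIs), Polr1a (1.01), Dkc1 (0.99) and Polr1c (0.95), and the lowest were Nip7 (-1.05), Rrp1b (-0.87), Utp20 (-0.78), Nob1 (-0.77) and Nop2 (-0.72), each on 6 UMIs or fewer in cycling cells. Ddx21 was thus higher in cycling cells of DoubleTg and level in those of TripleTg.

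**Figure D4:**
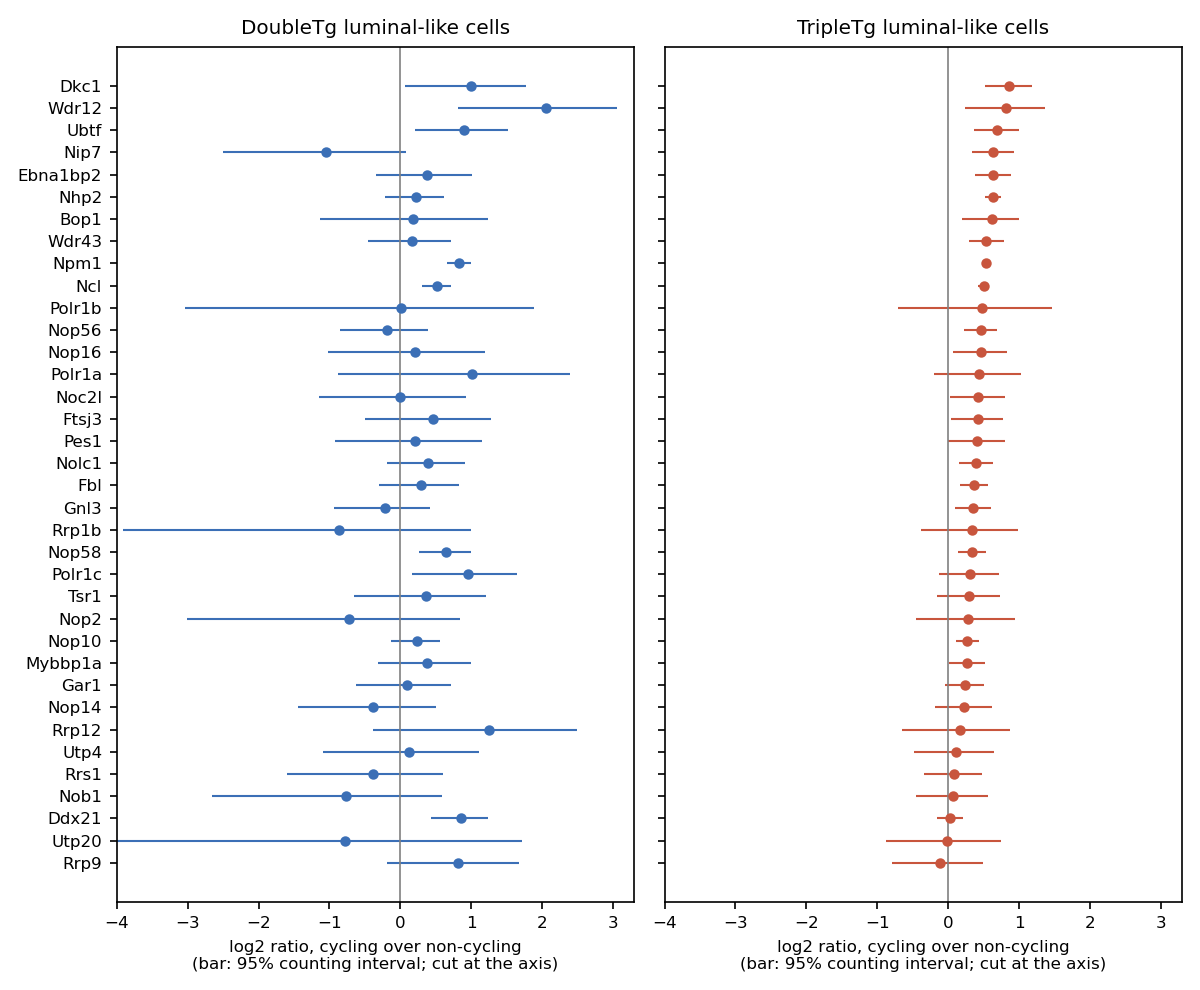
Log2 ratio of cycling over non-cycling luminal-like cells for each of the 36 genes in DoubleTg (left) and TripleTg (right), with bars for the 95% counting interval. The TripleTg points lie between -0.12 and 0.86, with a bar from 0.48 to 0.60 for Npm1 and from -0.70 to 1.47 for Polr1b, which had 9 UMIs, and in DoubleTg there were 51 cycling cells.

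Between the genotypes, the answer for cycling epithelial-like cells depended on how they were called. With at least 3 of the 15 proliferation genes the median log2 ratio of TripleTg over DoubleTg was 0.10, against -0.23 over all genes, with 8 genes at least 25% higher (26.7% of all genes were) and 9 lower (45.7% of all genes were). With at least 2 of them it was -0.078 (-0.16 over all genes), with at least 5 it was -0.41 (-0.25 over all genes), with 3 of 15 G1/S genes -0.66 (-0.097 over all genes) and with all UMIs -0.092 (-0.20 over all genes). With TMM factors, which shift every gene by 0.30, it was 0.41 (0.076 over all genes). The 36 thus lay above all genes in the settings with 2 or 3 proliferation genes and with all UMIs, and below them with 5 or with the G1/S genes. Within luminal-like cells the median of cycling cells was 0.15, against -0.21 over all genes, and there the DoubleTg cycling cells had basal markers at 1835 CPM and T/NK markers at 82.4 CPM, against 197 and 3.32 CPM in the TripleTg ones. Nip7 had 23.1 CPM in DoubleTg and 67.3 CPM in TripleTg (1.54, 0.38 to 3.02), Nhp2 had 196 and 403 CPM (1.04, 0.63 to 1.48) and Npm1 had 1135 and 1657 CPM (0.55, 0.37 to 0.72), while Utp20 (1.47) and Rrp1b (0.69) rested on 1 and 2 DoubleTg UMIs. Rrp9 (-1.48, -2.50 to -0.37), Polr1c (-0.98), Rrp12 (-0.86), Utp4 (-0.70) and Nop58 (-0.68, -1.07 to -0.26) were lowest. The sum was 4377 CPM in DoubleTg and 5038 CPM in TripleTg, and without Npm1, Ncl and Nhp2 it was 2235 and 2019 CPM. In non-cycling epithelial-like cells the median was -0.59, with 30 genes at least 20% lower (39.2% of all genes were), but this joins classes that differ and are unequally represented in the libraries. In non-cycling luminal-like cells the median was -0.15, against -0.06 over all genes, and in non-cycling basal-like cells it was -1.39.

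Other factors of the same pathway, 125 genes outside the 36, were also mostly lower in TripleTg basal-like cells. There 10 of 12 other factors of ribosomal DNA transcription (median -1.11), 43 of 46 small-subunit factors (-1.06), 41 of 46 large-subunit factors (-1.01), 8 of 9 snoRNP assembly factors (-1.10) and 10 of 11 RNA exosome subunits (-0.76) were at least 20% lower in TripleTg, and 1, 0, 3, 1 and 1 were at least 25% higher, where 36.3% and 31.8% of all genes were. The lowest were the large-subunit factors Ppan, at 106 CPM in DoubleTg and 19.4 CPM in TripleTg (-2.46), and Nle1 (36.5 and 6.70 CPM, -2.45), the RNA polymerase I factors Taf1a (-2.50) and Polr1e (-2.48), the snoRNP assembly factors Znhit6 (-2.01) and Ruvbl2 (-1.43), the small-subunit factors Ddx10 (-1.89) and Rcl1 (-1.84) and the exosome subunits Exosc2 (-1.92) and Exosc1 (-1.71). A few stood apart as higher in TripleTg, namely Las1l (0.99) and Gnl3l (0.63) of the large subunit, Exosc5 (0.79), Pih1d1 (0.52) and Polr1d (0.49). The third large-subunit gene, Nsa2, stood at 224 CPM in DoubleTg and 299 CPM in TripleTg (0.42).

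In luminal-like cells the same lists had members in both directions, where 27.1% of all genes were higher and 33.9% lower. The counts at least 25% higher and at least 20% lower were 1 and 6 of 11 for ribosomal DNA transcription (median -0.33), 2 and 11 of 45 for the small subunit (-0.07), 9 and 9 of 45 for the large subunit (0.02), 3 and 2 of 9 for snoRNP assembly (0.04) and 3 and 3 of 11 for the exosome (-0.02), so that, but for ribosomal DNA transcription, the counts were near or below those shares. Ppan (-1.21), Nle1 (-1.28), Mphosph10 (-1.06) and Pwp2 (-0.86) were low here too. Rsl24d1 (0.66), Mdn1 (0.55), Naf1 (0.72) and Dis3 (0.70) were high. Over all epithelial-like cells the medians of the 5 lists ran from -0.75 for ribosomal DNA transcription to -0.22 for the exosome, with 9 of 11, 33 of 46, 28 of 46, 6 of 9 and 5 of 11 lower (38.7% of all genes were) and 3 genes, each of the large subunit, higher (21.1% of all genes were). The share for the exosome is near that of all genes.

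Myc itself was lower in TripleTg. It stood at 102 CPM in DoubleTg and 60.6 CPM in TripleTg luminal-like cells (-0.76, -0.86 to -0.66) and at 180 and 43.3 CPM in basal-like cells (-2.05, -2.26 to -1.85). Myc was lower in TripleTg outside these classes too. It stood at 152 CPM in DoubleTg and 117 CPM in TripleTg fibroblast-like cells, and at 100 and 39.8 CPM in endothelial-like cells. Seminal vesicle-like cells had 58.4 and 34.6 CPM. Macrophage-like cells, where the median of the 36 genes was 0.12, had 21.2 and 12.6 CPM. The part of Myc in the levels of the 36 genes was not tested. Mxi1 and Mxd1, which compete with Myc for Max, stood in basal-like cells at 7.92 and 10.9 CPM in DoubleTg and at 37.8 and 39.3 CPM in TripleTg (2.25 and 1.85). Mycl, another Myc family gene, stood in luminal-like cells at 4.25 CPM in DoubleTg and 14.97 CPM in TripleTg (1.82), and Max at 49.3 and 73.9 CPM (0.58). The 7 genes with the E-box shown above had basal-like ratios between -1.88 (Nop2) and -1.15 (Utp4). They are themselves among the 36, and were not set against the genes without an E-box.

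Over the epithelial-like clusters, the summed level of the 36 genes ran from 2156 to 4156 CPM in the 10 DoubleTg luminal-like clusters, with Myc at 70.1 to 131 CPM, and from 2588 to 5213 CPM in the 8 TripleTg ones, with Myc at 33.0 to 106 CPM. In both libraries the highest luminal-like cluster was the one in which most cells were cycling. In DoubleTg it had 77 cells, of which 66.2% were cycling, and its Myc level was 70.1 CPM. In TripleTg it had 353 cells, of which 78.5% were cycling, and its Myc level was 58.4 CPM. The next, with 1093 cells at 4759 CPM, had 0.732% cycling cells and Myc at 86.4 CPM, and one of 548 cells at 4237 CPM had 1.64% cycling cells and Myc at 55.8 CPM. These sums lay above that of every DoubleTg luminal-like cluster, but with Npm1 left out this held for the cycling cluster alone, at 3509 CPM. The other two then had 3234 and 2813 CPM, against up to 3237 CPM in the DoubleTg clusters. The lowest epithelial-like cluster of all was a seminal vesicle-like one of TripleTg at 966 CPM.

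**Figure D5:**
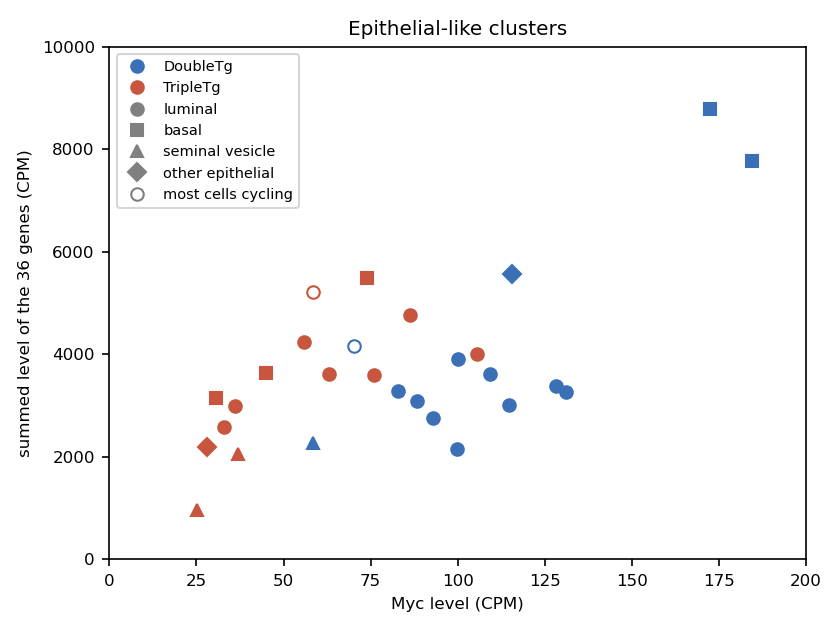
Summed level of the 36 genes (y axis, CPM) against the level of Myc (x axis, CPM) for the epithelial-like clusters of both libraries, with the class as the shape and an open symbol where most cells were cycling. The 2 DoubleTg basal-like clusters stand apart at 7765 and 8785 CPM with Myc at 184 and 172 CPM, and the cycling TripleTg cluster reaches 5213 CPM with Myc at 58.4 CPM.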

How the data were processed

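The deposited matrices hold raw UMI counts per gene and cell, which the authors made with Cell Ranger (6.0.2 per their processing notes, 6.1.1 in the header of the DoubleTg matrix) on mm10 with the transgenes added. A UMI is counted near the 3′ end of a transcript, so levels need no correction for gene length. The kept cells had more than 200 and fewer than 7000 genes, with mitochondrial UMIs under 15%. This is the filter that the study states. The deposited TripleTg matrix held as many cells as the study kept, and the filter left more DoubleTg cells here than in the study. Each library was clustered alone in scanpy 1.11.5 (2000 variable genes, 20 components, 15 neighbours, Leiden resolution 1). Clusters were named from marker lists, with thresholds set after the clusters were seen, and clusters of low depth or mixed markers (1392 DoubleTg and 1234 TripleTg cells) stayed unnamed. Epithelial-like clusters with low basal markers, and not led by seminal vesicle or cornified genes, were named luminal-like, with no threshold on the luminal list. The names are rebuilt here and need not match the study's own. Classes under 50 cells in a library at 5000 UMIs, among them smooth muscle-like cells, were not compared, nor were the other epithelial-like cells, which count within the whole epithelium.

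UMIs were summed per class after thinning every cell to 5000 UMIs, with seed 1. Intervals are exact Poisson for levels, exact binomial (Clopper-Pearson) for shares and conditional binomial for log2 ratios. Ratios were compared among genes with a mean of 5 CPM or more. With 1 library per genotype no p-value was computed. The ratio, interval and filter were tried on counts simulated with counting error only, for the luminal-like comparison (8451 genes). Of genes changed 1.5-fold and 2-fold, 99% and 100% were recovered past the limits of 25% higher or 20% lower. Of unchanged genes 1.08% passed these limits, and 95.7% of intervals held the true value. Differences between cells, mice or libraries, thinning and clustering were not simulated, so these shares do not cover them. Gene positions are GRCm38 spans of GENCODE mouse release 21, and promoter windows are from RefSeq (GRCm38.p6).

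The text names all 36 genes in epithelial-like cells, up to 5 highest and 5 lowest in the other comparisons, and the 2 highest and 2 lowest of each other list, of which not all are printed. Members and lists were chosen with earlier results of these data known. The early response list and the alternatives by Scrublet score, at 10000 UMIs and for cells of 10000 to 30000 UMIs were added after the data were seen.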

Additional observations from a re-analysis of the deposited data

How the results depend on the processing

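No paired analysis was possible because there is 1 library per genotype. Removing the cells that Scrublet calls doublets was not run, since it called 266 DoubleTg cells (2.51%) and 0 TripleTg cells. Leaving out the 8% of cells with the highest scores was run in its place. The basal-like median kept its sign under all 8 alternatives (-1.56 to -1.33), as did the median of cycling over non-cycling TripleTg cells under 10 (0.35 to 0.53). The epithelial-like median kept its sign under 10 alternatives and moved to -0.44 with TMM factors, -0.40 without thinning, -0.45 without ribosomal protein and mitochondrial genes, -0.39 in cells with an hMETtg UMI and -0.91 in cells of 10000 to 30000 UMIs. The non-cycling median moved likewise, to -0.46 with TMM factors, -0.42 without thinning, -0.49 without those genes and -0.93 in cells of 10000 to 30000 UMIs. Leaving ribosomal protein and mitochondrial genes out of the total shifted luminal-like ratios by 0.15, which took that median to 0.032, and the median of all genes to 0.098. The cycling epithelial-like median turned to -0.092 without thinning, -0.078 with 2 and -0.41 with 5 of 15 proliferation genes and -0.66 with 3 of 15 G1/S genes, and was 0.41 with TMM factors. The DoubleTg median of cycling over non-cycling cells turned to 0.14 without thinning and 0.58 with G1/S genes, and was -0.43 with TMM factors. The count of genes at least 25% higher in epithelial-like cells, 1, became 0 at 1.5-fold and in cells of 10000 to 30000 UMIs, and 2 with TMM factors, without thinning, at 10000 UMIs, in cells with an hMETtg UMI and without ribosomal protein and mitochondrial genes. The count at least 20% lower, 29, became 19 without thinning and in cells with an hMETtg UMI. The cause of these moves was not tested. In the 51 cycling luminal-like DoubleTg cells their number limits single genes, and Utp20 rests on 1 UMI and Wdr12 on 8 UMIs.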
